A study of Homo sapiens with 3 samples.

Results

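WNT signaling was followed in A375 melanoma cells through 10 genes, which were taken by symbol from the 58037 genes of the count table: the ligands WNT5A and WNT5B, the receptors ROR2 and FZD7, the secreted inhibitors DKK1 and DKK3, and the transcriptional effectors or feedback genes AXIN2, LEF1, TCF7 and RNF43. A375 is an established human melanoma cell line. Cells were kept for 24 h in serum-free DMEM (control), in medium conditioned by young adipocytes (YA-A375) or in medium conditioned by old adipocytes (OA-A375), and each group had 1 poly(A) RNA library. Adipocytes had been differentiated in culture from human subcutaneous preadipocytes, and their secretomes were collected in serum-free DMEM. The sources used here do not say how many donors stood behind each secretome.

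WNT ligands are secreted lipid-modified glycoproteins that bind Frizzled receptors together with a co-receptor. In the canonical branch, LRP co-receptors are engaged, the AXIN-APC-GSK3 destruction complex is held back, and beta-catenin enters the nucleus to act with TCF/LEF factors, which turn on feedback genes such as AXIN2 and RNF43. In the non-canonical branch, WNT5A acts through Frizzled and ROR receptors without beta-catenin, and in melanoma it is known for its link to motility and invasion.

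Of the 10 genes, 6 carried enough reads for a fold change: WNT5A, FZD7, DKK1, DKK3, LEF1 and TCF7 had a mean of at least 20 normalized counts over the 3 libraries. Normalized counts are raw counts divided by a size factor of each library. WNT5B, ROR2 and RNF43 held at most 3 counts in every library, so they have too few counts for any fold change, and AXIN2 had enough reads in OA-A375 alone. Fold changes are ratios of normalized counts, each with a 95% interval (Clopper-Pearson, on how the gene's reads divided between the 2 libraries), and a gene was called higher or lower at 1.2-fold. The methods of the study apply a value of 1.2 to upregulated genes without giving its scale, and read as a log2 fold change it would leave none of the 6 genes called in any comparison. The intervals cover counting error only. With 1 library per group no difference has a replicate check, no p-value was computed, and the values compare libraries rather than conditions.

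Total counts were 18089008 to 21448195 per library. The label was checked against 9 genes of the melanocyte lineage, of which 4 had a mean of at least 20. ERBB3 had 6195 to 12641 counts, MITF 764 to 1221 and S100B 550 to 843. The fourth, S100A1, had only 19, 30 and 15 counts in control, YA-A375 and OA-A375, with exons of other genes on 18.3% of its exon bases. The lineage factor SOX10 was listed at 0 counts in all 3 libraries. Of the pigment genes, MLANA had 22, 18 and 16 counts in control, YA-A375 and OA-A375, while PMEL, TYR and DCT did not exceed 10 counts. For 9 adipocyte markers the summed normalized count was 650 in control, 1180 in YA-A375 and 484 in OA-A375, with 4 genes at a mean of at least 20. Most of that sum came from LPL (353, 583 and 30 counts in control, YA-A375 and OA-A375) and PLIN4 (284, 579 and 321), CIDEC had 6, 31 and 36 counts and CFD 28, 35 and 40, whereas LEP and CIDEA were at 0 counts throughout and ADIPOQ at 1, 0 and 0. FABP4 had 16, 15 and 2 counts and PLIN1 2, 5 and 2. For 10 fibroblast markers the sums were 715, 905 and 660, with 5 genes at a mean of at least 20. PDGFRB had 515, 568 and 334 counts, COL1A1 75, 117 and 84, LUM 66, 101 and 58, PDGFRA 76, 20 and 51 and DCN 13, 138 and 24, a ratio to control of 10.6 for DCN in YA-A375 (interval 6.02 to 20.5). POSTN, with a mean under 20, was highest in OA-A375, at 6, 10 and 27 counts and a ratio to control of 5.36 there (2.17 to 15.9). COL3A1 was at 0, 1 and 1 counts, COL1A2 at 1, 1 and 2, THY1 at 4, 1 and 2 and FAP at 3, 1 and 5. The part of these transcripts in the results below was not tested. In bulk RNA, fewer cells that express a gene and less of its RNA per cell cannot be told apart.

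The promoters of DKK1 and TCF7 are shown because, of the 7 genes with a RefSeq promoter sequence, only these had a match to the core sequence bound by TCF/LEF factors. The windows are GRCh38.p14 sequence from RefSeq, 300 bases each on the plus strand, from 250 bases before a gene's start to 50 after it. The DKK1 window is chr10:52314031-52314330, and the TCF7 window, at the more downstream of its listed starts, is chr5:134123368-134123667. Capitals mark matches on either strand to CTTTGNN in which each N is A or T.
DKK1: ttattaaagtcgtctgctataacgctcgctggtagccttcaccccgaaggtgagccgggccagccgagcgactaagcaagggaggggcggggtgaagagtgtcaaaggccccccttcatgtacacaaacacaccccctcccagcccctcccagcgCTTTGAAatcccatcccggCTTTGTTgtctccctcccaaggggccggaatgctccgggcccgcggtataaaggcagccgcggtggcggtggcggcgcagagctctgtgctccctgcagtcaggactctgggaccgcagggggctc
TCF7: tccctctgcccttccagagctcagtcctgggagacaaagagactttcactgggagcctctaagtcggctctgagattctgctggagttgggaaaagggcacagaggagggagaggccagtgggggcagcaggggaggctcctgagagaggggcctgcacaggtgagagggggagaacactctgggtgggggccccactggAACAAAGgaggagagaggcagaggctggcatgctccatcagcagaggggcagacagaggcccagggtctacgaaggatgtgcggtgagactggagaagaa
The DKK1 window had 2 matches, CTTTGAA from base 156 and CTTTGTT from base 175, and the TCF7 window had 1 match on the opposite strand, read as AACAAAG from base 201. The windows of WNT5A, WNT5B, LEF1, ROR2 and RNF43 had none. Among all 35116 RefSeq promoter windows, 13.8% held a match, beside 2 of the 11 windows of these genes. A match of 7 letters is a description of the sequence, and binding was not measured.

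**Figure D1:**
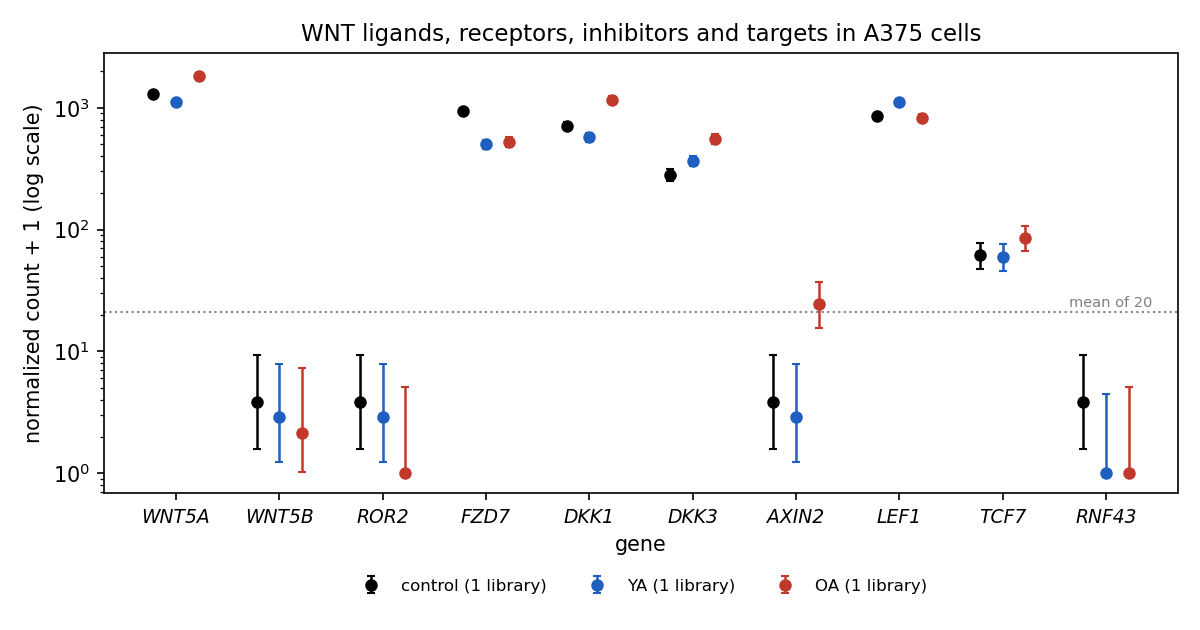
Normalized count plus 1 (log scale) of each of the 10 WNT genes in control (black), YA-A375 (blue) and OA-A375 (red), 1 library each, with bars for the exact 95% Poisson interval of the count. The 6 well-counted genes lie well above the dotted line, which marks a normalized count of 20, AXIN2 crosses it in OA alone with 21 counts, and WNT5B, ROR2 and RNF43 lie at 3 counts or fewer.

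Levels between genes were compared as RPKM, the counts per kilobase of annotated exon scaled to library size. DKK1 had the highest level of the 10 genes in every library, at 15.8 in control, 12.8 in YA-A375 and 26.1 in OA-A375. In control it was followed by FZD7 (12.1), WNT5A (8.72), LEF1 (7.82), DKK3 (2.74) and TCF7 (0.297), and the counting intervals of neighbors in this order overlapped for WNT5A and LEF1 alone among the 6. In YA-A375 the order was DKK1, LEF1 (10.3), WNT5A (7.45), FZD7 (6.47), DKK3 (3.58) and TCF7 (0.289), with overlap between WNT5A and FZD7. In OA-A375 it was DKK1, WNT5A (12.2), LEF1 (7.54), FZD7 (6.63), DKK3 (5.41) and TCF7 (0.412), with overlap between LEF1 and FZD7 and between TCF7 and AXIN2 (0.222). FZD7 thus stood next to DKK1 in control and ranked after LEF1 and WNT5A in both secretome libraries. Given the overlaps, it was not resolved from WNT5A in YA-A375 or from LEF1 in OA-A375. Annotated exon length counts every exon of every transcript, so a level is a lower estimate where A375 uses short transcripts.

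The first question was how the WNT ligands and their receptors differed between the libraries. WNT5A was the well-counted ligand and was higher in OA-A375, whereas FZD7, one of the Frizzled receptors, was lower after both secretomes by nearly the same factor.

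WNT5A (ENSG00000114251.13; GRCh38 chromosome 3, 55465715 to 55490539) was read 1383 times in control, 1174 times in YA-A375 and 1636 in OA-A375, which is 1303, 1110 and 1836 after normalization. OA-A375 was thus the highest library and YA-A375 the lowest. The ratio to control was 1.41 in OA-A375 (interval 1.31 to 1.51) and 0.851 in YA-A375 (0.787 to 0.921), which does not reach 1.2-fold. YA-A375 had 0.604 of the OA-A375 level (0.560 to 0.652). WNT5B (ENSG00000111186.12; chromosome 12, 1529891 to 1647243), the close paralog of WNT5A, had 3, 2 and 1 counts and was at the detection floor of 3 counts throughout.

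FZD7 (ENSG00000155760.2; chromosome 2, 202034587 to 202038445) was read 998 times in control, 532 times in YA-A375 and 463 in OA-A375. The normalized counts were 940, 503 and 520, so control stood above both secretome libraries, which lay close together. FZD7 was 0.535 of control in YA-A375 (interval 0.480 to 0.595) and 0.553 in OA-A375 (0.494 to 0.618), and the ratio of YA to OA was 0.967 with an interval from 0.853 to 1.10. Both ratios share the control library, so they are not independent of each other. ROR2 (ENSG00000169071.14; chromosome 9, 91563091 to 91950162), a tyrosine kinase receptor for WNT5A, had 3 counts in control, 2 in YA-A375 and 0 in OA-A375. The ligand was therefore well counted in cells in which ROR2 was at the floor, while other co-receptors were well counted. ROR1 had 308, 235 and 154 counts in control, YA-A375 and OA-A375, and RYK had 3702, 3544 and 2689. For ROR2, a count of 0 in OA-A375 allows up to 0.166 CPM (the count scaled to the library total) where the limit is set at the floor of 3 counts.

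The next question concerned the Dickkopf proteins. DKK1 binds LRP5 and LRP6 and blocks canonical WNT signaling, and DKK3 is a divergent secreted relative whose place in the pathway is less settled. Both were higher in OA-A375 than in control, and in YA-A375 they lay on opposite sides of control.

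DKK1 (ENSG00000107984.9; chromosome 10, 52314296 to 52318042) was read 747 times in control, 603 times in YA-A375 and 1040 in OA-A375, with normalized counts of 704, 570 and 1167. OA-A375 was the highest and YA-A375 the lowest library, as for WNT5A. DKK1 was 1.66-fold of control in OA-A375 (interval 1.51 to 1.82) and 0.81-fold in YA-A375 (0.726 to 0.903), and YA-A375 had 0.488 of the OA-A375 level (0.441 to 0.540). In GENCODE 29, exons of PRKG1-AS1 cover 9.61% of the exon bases of DKK1, which leaves part of this count uncertain because use of strand in counting is not given in the sources used here.

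DKK3 (ENSG00000050165.17; chromosome 11, 11963106 to 12009769) was read 297 times in control, 386 times in YA-A375 and 495 in OA-A375, with normalized counts of 280, 365 and 556. Control was the lowest library and OA-A375 the highest. DKK3 was 1.99-fold of control in OA-A375 (interval 1.72 to 2.30) and 1.30-fold in YA-A375 (1.12 to 1.52). YA-A375 had 0.657 of the OA-A375 level (0.573 to 0.752).

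**Figure D2:**
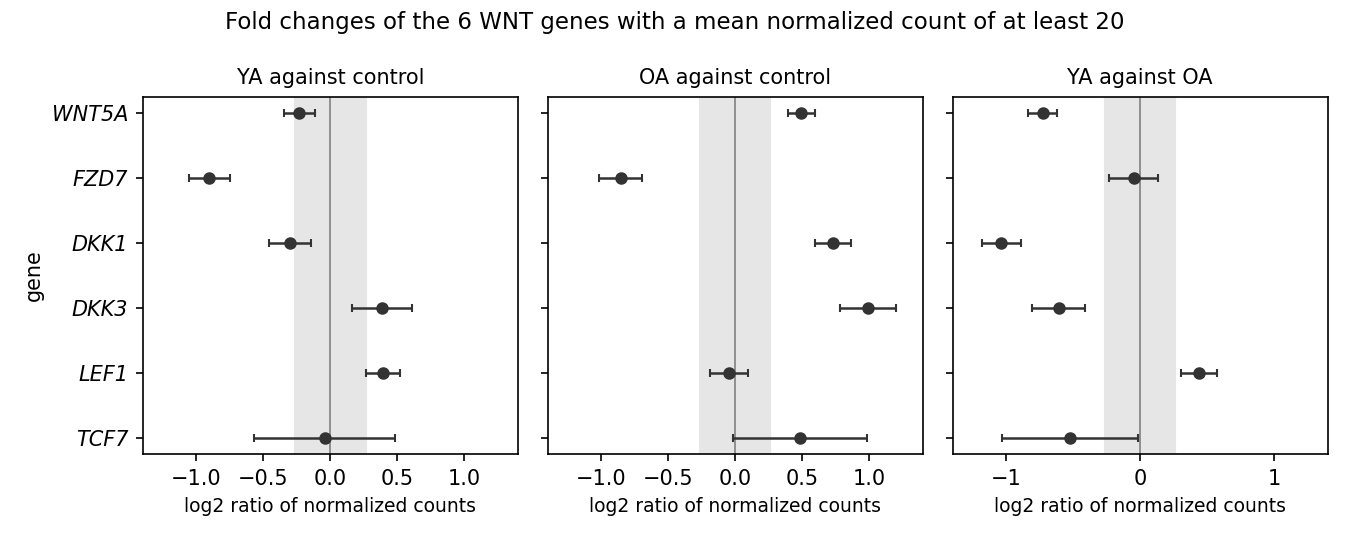
Log2 ratio of normalized counts for the 6 WNT genes with a mean of at least 20, in YA against control, OA against control and YA against OA, with bars for the 95% counting interval and grey for less than 1.2-fold. FZD7 lies at 0.535 and 0.553 of control in the first 2 panels and at 0.967 in the third, whereas WNT5A, DKK1 and DKK3 lie to the right in OA and to the left in YA against OA.

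The nuclear factors and feedback genes did not move as a block. LEF1, a DNA-binding partner of beta-catenin and itself a target, was higher in YA-A375, whereas AXIN2, a scaffold of the destruction complex and the usual readout of canonical signaling, exceeded 3 counts in OA-A375 alone.

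LEF1 (ENSG00000138795.9; chromosome 4, 108047545 to 108168956) was read 899 times in control, 1176 times in YA-A375 and 731 in OA-A375, with normalized counts of 847, 1111 and 821. YA-A375 stood above the other libraries, which lay close together. LEF1 was 1.31-fold of control in YA-A375 (interval 1.202 to 1.43) and 0.969 in OA-A375 (0.877 to 1.07), and YA-A375 had 1.35 times the OA-A375 level (1.23 to 1.49). Exons of LEF1-AS1 cover 5.20% of its exon bases.

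TCF7 (ENSG00000081059.19; chromosome 5, 134114711 to 134151865), a related factor, was read 64 times in control, 62 in YA-A375 and 75 in OA-A375. It was 0.972 of control in YA-A375 (interval 0.674 to 1.4) and 1.4-fold in OA-A375 (0.987 to 1.98), and both intervals take in equal levels. TCF7 passed 1.2-fold in OA-A375, but a difference from control was not resolved at this depth. The ratio of YA to OA was 0.696 (0.489 to 0.988).

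AXIN2 (ENSG00000168646.12; chromosome 17, 65528563 to 65561647) was read 3 times in control, 2 in YA-A375 and 21 in OA-A375. Its mean of 9.43 normalized counts is under 20, so it was not called. The ratio of OA-A375 to control was 8.34 with an interval from 2.49 to 43.7, and YA-A375 had 0.0802 of the OA-A375 level (0.00912 to 0.328). The lower bound is well above 1, but the ratio rests on very few reads, and exons of AC004805.1 cover 25.2% of the exon bases of AXIN2. RNF43 (ENSG00000108375.12; chromosome 17, 58352500 to 58417595), a ubiquitin ligase that removes Frizzled receptors from the cell surface, had 3, 0 and 0 counts. With the same limit of 3 counts, a count of 0 in YA-A375 allows up to 0.141 CPM. Exons of SUPT4H1, TSPOAP1-AS1 and AC004687.2 cover 73.9% of its exon bases, so its count is uncertain and low expression cannot be read from it.

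In YA-A375 against control, 2 of the 6 well-counted genes were at least 1.2-fold higher (DKK3, LEF1) and 2 lower (FZD7, DKK1), where 17.4% of the 14413 genes with a mean of at least 20 were higher and 16.4% lower. The interval lay wholly beyond 1.2-fold for LEF1 on the higher side and FZD7 on the lower side, beside 6.03% and 4.44% of all these genes. For LEF1 the margin was narrow, with a lower bound of 1.202. In OA-A375 against control, 4 were higher (WNT5A, DKK1, DKK3, TCF7) and 1 lower (FZD7), where 21.1% and 21.5% of all genes were. With the interval wholly beyond 1.2-fold, 3 were higher and 1 lower, beside 9.04% and 9.08% of all genes. In YA against OA, LEF1 was higher and WNT5A, DKK1, DKK3 and TCF7 were lower, where 23% of all genes were higher and 21.5% lower. The intervals of LEF1, WNT5A, DKK1 and DKK3 lay beyond 1.2-fold there, beside 10% of all genes on the higher and 9.03% on the lower side. The median log2 fold change of the 6 genes was -0.14 in YA-A375 and 0.48 in OA-A375, each against control, and -0.56 for YA against OA, while over all genes it was -0.02, 0.01 and -0.01. These 6 genes are a hand-picked set, and nothing is drawn from them about the pathway as a whole.

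To place them, 103 further WNT pathway genes were examined, of which 70 had a mean of at least 20. Of these, 10 were at least 1.2-fold higher and 18 lower in YA-A375 against control, beside 17.4% and 16.4% of all genes. OA-A375 against control gave 14 and 20, beside 21.1% and 21.5%, and YA against OA gave 16 and 16, beside 23% and 21.5%. Their median log2 fold changes were -0.06, 0.00 and -0.04, close to those of all genes.

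Frizzled receptors were the group around FZD7. Of 10 listed, 9 were well counted, and in YA-A375 6 of these were at least 1.2-fold lower and none higher, beside 16.4% and 17.4% of all genes, with a median log2 fold change of -0.45. FZD1 had 1591 counts in control, 861 in YA-A375 and 1089 in OA-A375, 0.543 of control in YA-A375 (interval 0.499 to 0.590). FZD8 (595, 379 and 581 counts) had 0.639 of control in YA-A375 (0.560 to 0.728), and FZD6 (1624, 1243 and 1370) had 0.768 (0.712 to 0.827). In OA-A375, 4 of the 9 were lower and 1 higher, beside 21.5% and 21.1% of all genes. The interval lay wholly beyond 1.2-fold for FZD7 alone there, on the lower side, beside 9.08% of all genes lower and 9.04% higher. FZD1, FZD8 and FZD6 each had less in YA-A375 than in OA-A375, at 0.666 (0.608 to 0.729), 0.549 (0.481 to 0.626) and 0.764 (0.707 to 0.825), whereas the interval of FZD7 took in equal levels. Of the 5 well-counted co-receptors, ROR1, the relative of ROR2, had 308, 235 and 154 counts and was 0.596 of control in OA-A375 (0.488 to 0.725).

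Of the 19 WNT ligands, 5 were well counted, and the others besides WNT5A were of lower count. In YA-A375, 2 were at least 1.2-fold higher and 1 lower, beside 17.4% and 16.4% of all genes. None of these 5 had its interval wholly beyond 1.2-fold there, beside 6.03% of all genes on the higher and 4.44% on the lower side. Against control, OA-A375 had 3 higher and 2 lower, beside 21.1% and 21.5%. The interval lay wholly beyond 1.2-fold for the 3 higher, beside 9.04% of all genes on the higher and 9.08% on the lower side. WNT9A had 62 counts in control, 81 in YA-A375 and 110 in OA-A375, 2.11-fold of control in OA-A375 (interval 1.53 to 2.93). WNT10B had 108, 74 and 142 counts, 1.57-fold of control in OA-A375 (1.21 to 2.03) and 0.439 in YA against OA (0.327 to 0.585). WNT2B had 32, 39 and 20 counts, 0.745 of control in OA-A375 (0.404 to 1.34), and WNT3 had 200, 171 and 137, 0.816 of control (0.652 to 1.02), so both were on the lower side with intervals that take in equal levels. WNT5A, WNT9A and WNT10B were highest in OA-A375, whereas WNT2B and WNT3 were lowest there.

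Among secreted inhibitors and their receptors, 5 of 16 were well counted, DKK1 and DKK3 among them. Of these, 2 were higher and 2 lower in YA-A375, beside 17.4% and 16.4% of all genes. Against control, OA-A375 had 3 higher and 1 lower, beside 21.1% and 21.5% of all genes. SFRP1, which binds WNT ligands directly, was by far the most counted, with 10524 counts in control, 8405 in YA-A375 and 9917 in OA-A375, a ratio to control of 0.801 in YA-A375 (interval 0.778 to 0.824) and of 0.714 in YA against OA (0.693 to 0.735). KREMEN1, a receptor for DKK1, had 285, 368 and 103 counts and was 0.431 of control in OA-A375 (0.340 to 0.541). YA-A375 had 3.01 times the KREMEN1 level of OA-A375 (2.41 to 3.78).

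R-spondins protect Frizzled receptors from the ligases RNF43 and ZNRF3, and the listed R-spondin module holds ZNRF3 itself. Of its 9 genes, 3 were well counted. Among these, 1 was higher and 2 lower in YA-A375, beside 17.4% and 16.4% of all genes. Against control, OA-A375 had 2 higher and 1 lower, beside 21.1% and 21.5% of all genes. The R-spondin receptor LGR6 had 16 counts in control, 6 in YA-A375 and 65 in OA-A375. It was 4.84-fold of control in OA-A375 (interval 2.77 to 8.96) and 0.0777 in YA against OA (0.0275 to 0.178). Its normalized counts were 15.1, 5.67 and 73.0, so LGR6 reached the mean required of a well-counted gene only through OA-A375. That selection favors a high value in OA-A375, so the calls of LGR6 that involve OA-A375 are not independent of it. ZNRF3, the relative of RNF43, had 265, 334 and 320 counts and was 1.44-fold of control in OA-A375 (1.22 to 1.70). LGR4, another R-spondin receptor, had 393, 308 and 255 counts and was lower after both secretomes, at 0.786 of control in YA-A375 (0.675 to 0.915) and 0.773 in OA-A375 (0.658 to 0.907).

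The destruction complex and Dishevelled genes around AXIN2 differed little. None of the 15 well counted passed 1.2-fold in YA-A375, where 17.4% of all genes were higher and 16.4% lower. In OA-A375, 1 was higher and 1 lower, beside 21.1% and 21.5% of all genes. The kinase GSK3B, which marks beta-catenin for degradation, had 5140, 4349 and 2936 counts, 0.68 of control in OA-A375 (interval 0.650 to 0.712). CTNNB1, which encodes beta-catenin and was singled out after its values had been seen, had 8886, 8200 and 7212 counts, 0.926 of control in YA-A375 (0.898 to 0.954) and 0.967 in OA-A375 (0.937 to 0.997).

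Of the 13 TCF/LEF factors and cofactors, which include LEF1 and TCF7, 4 were higher and 2 lower in YA-A375, beside 17.4% and 16.4% of all genes. Against control, OA-A375 had 4 higher and 3 lower, beside 21.1% and 21.5% of all genes. TCF7L2 had 2206, 3272 and 1945 counts and, like LEF1, was highest in YA-A375, at 1.49-fold of control (interval 1.41 to 1.57) and 1.42-fold of OA-A375 (1.34 to 1.5). The coactivator BCL9L had 3094, 3934 and 3673 counts, 1.28-fold of control in YA-A375 (1.22 to 1.34) and 1.41-fold in OA-A375 (1.35 to 1.48), with exons of other genes on 38.8% of its exon bases. The 3 lower in OA-A375 were CTNNBIP1, TLE2 and TCF7L1. CTNNBIP1, an inhibitor of the bond between beta-catenin and TCF factors, had 994, 761 and 415 counts (0.497 of control in OA-A375, 0.442 to 0.558), the corepressor TLE2 had 115, 122 and 48 (0.497, 0.347 to 0.702), and TCF7L1 had 74, 63 and 30 (0.483, 0.305 to 0.747). In YA against OA, CTNNBIP1 was at 1.54 (1.37 to 1.74) and TLE2 at 2.14 (1.52 to 3.05). The 4 higher in OA-A375 were BCL9L, TCF7 and, of the same corepressor family as TLE2, TLE1 and TLE3. TLE1 had 843, 1057 and 1177 counts, 1.66-fold of control in OA-A375 (1.52 to 1.82), and TLE3 had 833, 976 and 875, 1.25-fold (1.14 to 1.38), so members of the TLE family lay on both sides of control.

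The list of 16 beta-catenin targets holds 5 of the 10 genes, and 9 of its genes were well counted. In YA-A375, 2 were higher and 3 lower, beside 17.4% and 16.4% of all genes. Against control, OA-A375 had 3 higher and none lower, beside 21.1% and 21.5% of all genes. The medians were -0.04 in YA-A375 and 0.19 in OA-A375 on the log2 scale. CCND1, the cyclin of G1 phase, had 14885, 11000 and 14274 counts, 0.741 of control in YA-A375 (interval 0.723 to 0.760) and 0.649 in YA against OA (0.633 to 0.665). MITF, the melanocyte master factor, had 1221, 764 and 881 counts, 0.628 of control in YA-A375 (0.573 to 0.688) and 0.73 in YA against OA (0.662 to 0.805).

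**Figure D3:**
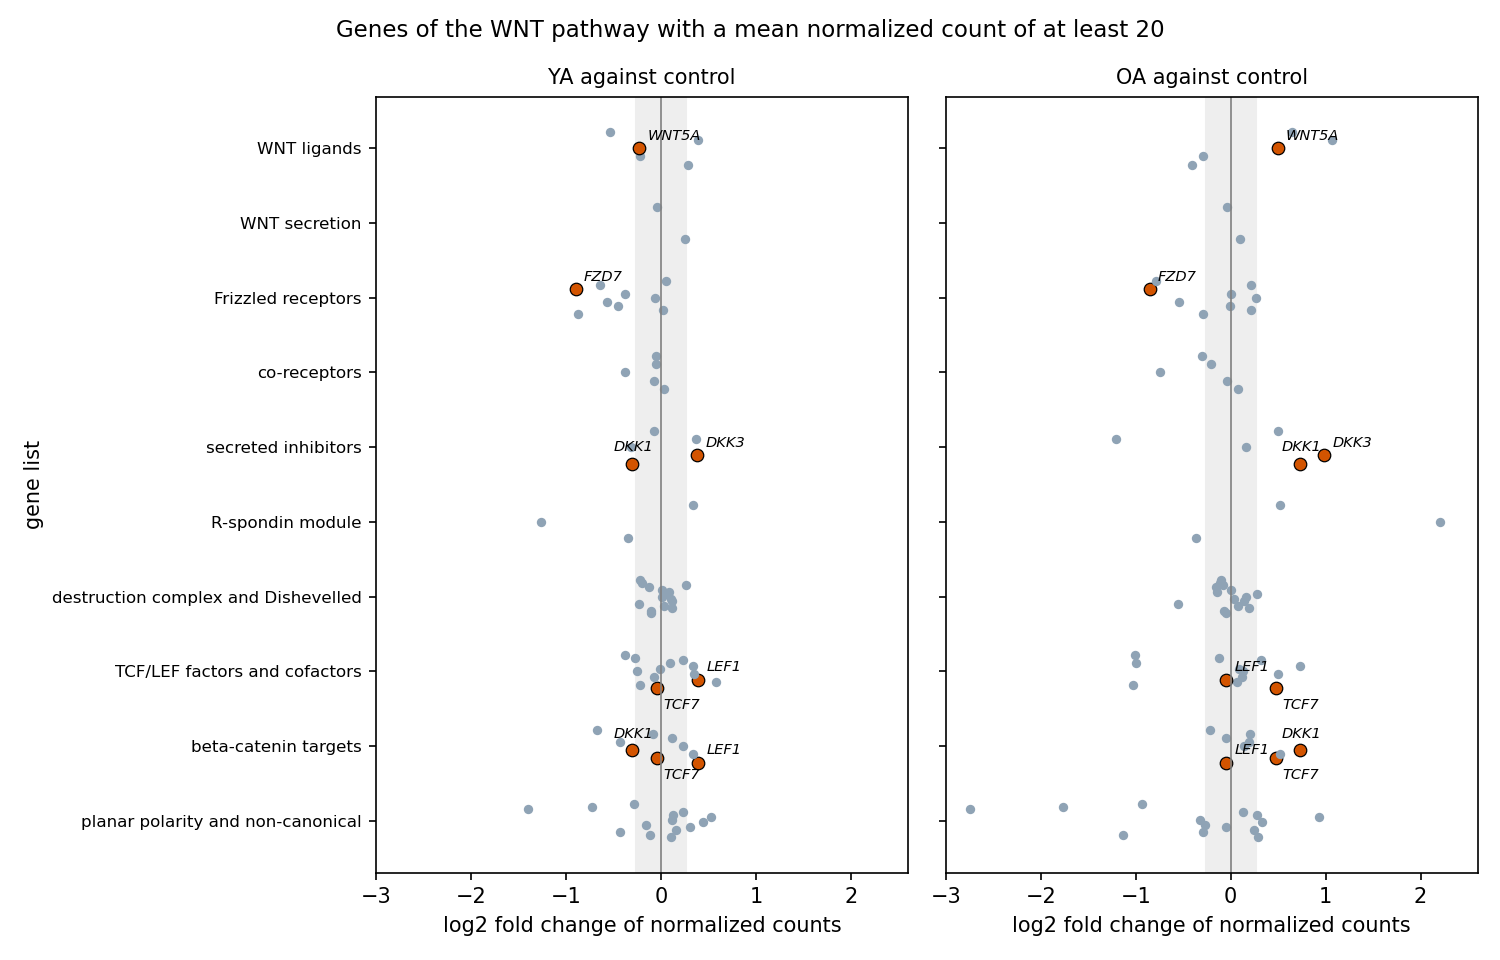
Log2 fold change of normalized counts against control in YA (left) and OA (right) for the well-counted genes of each list, with the genes of interest in orange and named, the others in grey-blue, and a grey band for less than 1.2-fold. Genes that belong to 2 lists are drawn in each. Frizzled receptors lie to the left in YA (median -0.45), and the destruction complex stays within the band there.

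Among the 14 planar polarity and non-canonical genes, the branch that WNT5A and ROR2 serve, 3 were higher and 4 lower in YA-A375. Of all genes, 17.4% were higher and 16.4% lower there. Against control, OA-A375 had 4 higher and 7 lower, beside 21.1% and 21.5% of all genes. DACT1, a partner of Dishevelled, had 222 counts in control, 83 in YA-A375 and 27 in OA-A375, 0.375 of control in YA-A375 (interval 0.288 to 0.485), 0.145 in OA-A375 (0.0934 to 0.217) and 2.59 in YA against OA (1.66 to 4.16). Its relative DACT3 had 39, 23 and 9 counts (0.275 of control in OA-A375, 0.117 to 0.577). The core polarity gene VANGL2 had 337, 309 and 128 counts, 0.452 of control in OA-A375 (0.366 to 0.556) and 2.03 in YA against OA (1.65 to 2.52). Higher values than in control were found in YA-A375 for DAAM2 (270, 387 and 432 counts; 1.44, 1.23 to 1.69), with exons of other genes on 30.1% of its exon bases, and for CELSR3 (917, 1238 and 971; 1.35, 1.24 to 1.48). Both were also above control in OA-A375, DAAM2 at 1.91-fold (1.63 to 2.23) and CELSR3 at 1.26-fold (1.15 to 1.38), and DAAM2 was higher there than in YA-A375, which had 0.754 of the OA-A375 level (0.656 to 0.867).

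The other WNT genes whose pair of log2 fold changes against control lay nearest to each of the 6 were also sought among 75 candidates. These were KREMEN2 for WNT5A (distance 0.154 on the log2 scale) and for TCF7 (0.0467), FZD4 for FZD7 (0.458), WNT5A itself for DKK1 (0.245), WNT9A for DKK3 (0.08) and CELSR1 for LEF1 (0.0857). Each pattern rests on 3 libraries and the same control, so the pairing is a description. FZD4 had 195, 131 and 112 counts, CELSR1 924, 1139 and 749, and KREMEN2 only 35, 33 and 42. Exons of other genes cover 18.9% of the exon bases of FZD4 and 13.8% of those of KREMEN2.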

How the data were processed

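Poly(A) RNA of 3 A375 libraries (SureSelect, Agilent; NovaSeq, Illumina; bcl2fastq) was analyzed. The deposited values are unnormalized whole-number counts for each gene. The submitters' processing notes name STAR 2.5.1b, featureCounts, R 3.6.1 and hg38, while the annotation release and the use of strand are not given in the sources used here. The labels give 24 h for the series and a longer upper limit in the treatment protocol.

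Counts were divided by DESeq2 1.42.0 size factors (R 4.3.3), with values of 1.06 (control), 1.06 (YA) and 0.891 (OA). Calls used log2 fold changes with a pseudocount of 1, over genes with a mean of at least 20. Folds in the text are plain ratios of normalized counts. Floors are 3 counts, and intervals cover counting error only, because PCR copies could not be told from separate molecules. No quasi-likelihood test in edgeR could be fitted to 1 library per group. Exon lengths, overlaps and positions came from GENCODE 29 (GRCh38), which matched 57433 of 58037 identifiers.

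The 10 genes and all lists were chosen with earlier results of these data known. From each list and comparison, up to 3 further genes with the largest change among those whose interval lay wholly beyond 1.2-fold are named, as is the gene nearest in pattern to each of the 6. WNT2B, WNT3, LGR4, TLE1, TLE3 and CTNNB1 were added after their values had been seen. The interval procedure was tested on simulated Poisson counts, which hold counting error only. That test therefore says nothing about variation between cultures or libraries. Alternatives were edgeR 4.0.16 TMM and total-count scaling, other filters, a pseudocount of 5 and other thresholds. Python 3.11.15 with scipy 1.17.1 was used for the remaining steps.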

Additional observations from a re-analysis of the deposited data

Results flagged for a closer look

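Some genes lay past 1.2-fold on opposite sides of control in the YA and OA libraries. Each side is 1 library, so the difference was not tested. DKK1, lower in YA and higher in OA, had a log2 fold change of -1.03 in YA against OA. WNT10B, with the same pattern, had -1.18. LGR6 had -3.47, rests on 6 counts in YA and reached the required mean only through OA. KREMEN1 had the reverse pattern, with 1.58, as did WNT2B, with 0.69 and at most 39 counts in a library. Exons of ST7L cover 21.2% of the exon bases of WNT2B. The interval of LGR6 in YA against control ran from 0.121 to 1.01, so its lower side was not resolved. For WNT2B the intervals were 0.746 to 2.02 in YA and 0.404 to 1.34 in OA, each against control. They took in equal levels, as did its interval in YA against OA (0.935 to 2.97), so its pattern was not resolved.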

How the results depend on the processing

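The log2 fold changes of the 6 well-counted genes were recomputed 54 times, with TMM, with scaling to the total and with 5 as the pseudocount. All of these values stayed within their counting interval, none changed sign, and the largest move was 0.0275. The numbers of genes past 1.2-fold stayed within 1.5 times their value under those settings and where the mean had to reach 100. Without any filter, 8 of the 10 genes passed in YA against control, 9 in OA against control and 8 in YA against OA, which adds genes at the floor, and of the 103 other pathway genes 49 passed in YA and 54 in OA against control. Stricter thresholds lower the numbers by construction. At 2-fold, 0, 0 and 1 of the 6 well-counted genes passed in YA against control, OA against control and YA against OA. Of the 70 other well-counted pathway genes, 2, 8 and 7 passed. At a log2 fold change of 1.2, 0, 0 and 0 of the 6 passed, and 2, 4 and 3 of the 70. No share of all genes was computed at these 2 thresholds or without a filter, so these numbers have no background beside them. With the interval wholly beyond 1.2-fold, 2 of the 6 passed in YA against control, and 11, 17 and 15 of the 70 in the 3 comparisons. Of all genes, 6.03%, 9.04% and 10% were then higher and 4.44%, 9.08% and 9.03% lower. This rule was applied with DESeq2 size factors alone, where the interval of LEF1 in YA against control began at 1.202. No paired analysis was possible because each group had 1 library. Depth limits TCF7, AXIN2 and the 3 genes at the floor most.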

Other observations

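Some canonical feedback genes outside the rule for named genes, chosen after their values had been seen, had means under 20. NKD1 was read 24, 12 and 11 times in control, YA and OA, with ratios to control of 0.501 (interval 0.229 to 1.04) and 0.546 (0.241 to 1.16), so a difference was not resolved. The ligand WNT7A had 36, 8 and 8 counts, 0.223 of control in YA (0.0895 to 0.488) and 0.265 in OA (0.106 to 0.579). LGR5, SP5, NOTUM and APCDD1 did not exceed 4 counts in any library.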
